A study of Mus musculus with 12 samples.

Results

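The genes described here were 10 regulators of neuronal pre-mRNA splicing: Rbfox1, Rbfox2, Rbfox3, Nova1, Nova2, Mbnl1, Mbnl2, Celf4, Ptbp2 and Srrm4. They were chosen by name as RNA-binding proteins or splicing factors known for neuron-type exon choice. No threshold on measured values was used, but earlier results of these data were known at the time. The regulators were 10 of the 56941 genes listed in the count files. All 10 passed the filter on low counts and were among the 20341 genes tested.

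An RNA-binding splicing regulator binds short motifs in or beside an alternative exon, and the exon is then included or skipped depending on where the protein sits. RBFOX, NOVA and MBNL proteins each read their own motif, PTBP2 mostly keeps exons out in young neurons, and SRRM4 brings very short neuronal microexons into mature transcripts. In the cerebellum, RBFOX1 and RBFOX2 are known from Purkinje cells and RBFOX3, the antigen called NeuN, from granule cells, and several of these proteins have many ion channel and synaptic transcripts among their targets.

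The libraries came from cerebellum of 12 mice in 4 groups of 3, which were sedentary or exercise mice of each of the WT and SCA1 genotypes. SCA1 mice were heterozygous knock-ins, in which 1 copy of Atxn1 carries an expanded CAG tract that encodes glutamine, and WT mice were littermates without it. Exercise mice ran voluntarily on a cage wheel for 12 weeks, from week 4 to week 16 of age, and all mice were 16 weeks old. By the paper's methods, wheels were removed before behavioural testing of the mice. Tissue was taken after the last test, so running had stopped by then. Exercise mice were housed alone, whereas sedentary mice shared cages, so running and solo housing cannot be told apart. Ribosome-depleted total RNA was sequenced, and the values are gene counts, which measure how much RNA each regulator has and not which exons are included. The study used both sexes and the labels do not give the sex of a mouse. The 10 chromosome Y genes that passed the filter were above 0 on the log2 CPM scale, on average, in 3 of 3 WT sedentary, 2 of 3 WT exercise, 2 of 3 SCA1 sedentary and 1 of 3 SCA1 exercise mice. In bulk tissue, fewer cells of a type and less RNA per cell cannot be told apart.

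Read pairs per library ranged from 55059831 to 69065648, and 20556802 to 32127508 of them were counted on genes in the direction of the library kit. Lists of Purkinje cell and granule cell markers were well expressed (all 8 of 8 tested in each list), and the summed forebrain markers stayed between 6.38 and 17.5 CPM (counts scaled by library size). A pair of SCA1 libraries stood apart from the other 10. In mouse 16 (SCA1 sedentary) and mouse 55 (SCA1 exercise), 6.38% and 6.33% of read pairs mapped to several places, against 2.08% to 3.46% elsewhere. Hindbrain Hox genes summed to 31.7 and 39.2 CPM in those libraries and to at most 2.87 CPM in any WT library, granule cell markers summed to 3142 and 4073 CPM against 5997 to 6358 CPM in WT libraries, and oligodendrocyte markers to 3552 and 2995 CPM against 1491 to 2306 CPM. Differences of the regulators and of the genes named below that moved with these libraries are given with and without them. The granule cell sums of the other SCA1 libraries also lay below every WT library, at up to 5775 CPM (sedentary) and 5943 CPM (exercise), and 8 of 8 granule cell markers had lower counts in SCA1 mice in sedentary animals and averaged over activity. Some samples of lower RNA integrity had a modified library preparation, and which ones they were is not given in the sources used here. The part of marker levels, RNA integrity or preparation in any result was not tested.

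The RBFOX and NOVA families are sets of paralogs, and a read can be assigned to a paralog only where bases differ. The sequences below show the most alike exons among those compared. Compared were wholly coding exons of equal length within a limited size range, in the reference transcript of each gene. Other coding exons were not compared. The RBFOX exon lies in the RNA recognition motif, which contacts the GCAUG element. Capitals mark the bases that are not the same in all 3 genes (GRCm39, read 5′ to 3′ on the coding strand). The exons are at chr16:7103342-7103395 (Rbfox1, plus strand), chr15:76997805-76997858 (Rbfox2, minus strand) and chr11:118394546-118394599 (Rbfox3, minus strand).
Rbfox1: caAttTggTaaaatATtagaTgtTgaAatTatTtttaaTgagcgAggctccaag
Rbfox2: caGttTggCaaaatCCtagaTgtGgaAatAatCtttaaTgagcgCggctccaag
Rbfox3: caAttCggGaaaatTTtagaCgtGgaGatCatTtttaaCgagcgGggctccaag

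Of these 54 bases, 12 differed somewhere in the family, and Rbfox1 and Rbfox2 were the closest pair with 8 differences. The NOVA exon of 144 bases encodes part of the first KH domain, the RNA-binding fold of this family, and lies at chr12:46863669-46863812 (Nova1, minus strand) and chr7:18676141-18676284 (Nova2, plus strand). Capitals again mark the 34 differing bases.
Nova1: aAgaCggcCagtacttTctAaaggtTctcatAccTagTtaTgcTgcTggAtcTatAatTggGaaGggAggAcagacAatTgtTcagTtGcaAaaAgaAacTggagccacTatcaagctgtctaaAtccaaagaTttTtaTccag
Nova2: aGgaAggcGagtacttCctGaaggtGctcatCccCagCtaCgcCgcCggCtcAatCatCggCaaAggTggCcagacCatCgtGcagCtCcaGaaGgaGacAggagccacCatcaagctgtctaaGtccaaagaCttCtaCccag

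Mbnl1 and Mbnl2 differed at 47 bases of their matching exon and were 69.5% identical there. In the reference transcripts examined, 7 of the 10 regulators shared no window of 50 bases with another gene. Rbfox3, Nova2 and Celf4 shared at most 0.611% of their windows, so paralogs share little sequence there. For some genes these transcripts hold only a part of the merged exons, such as 2218 of 8501 bases for Rbfox2 and 2284 of 15909 for Mbnl2. Sharing in the rest of the counted exons was not examined. Nova1 overlaps exons of Gm33869 on the same strand, and reads there cannot be given to either gene. At most 1.78% of any regulator's counts lay on the opposite strand.

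**Figure D1:**
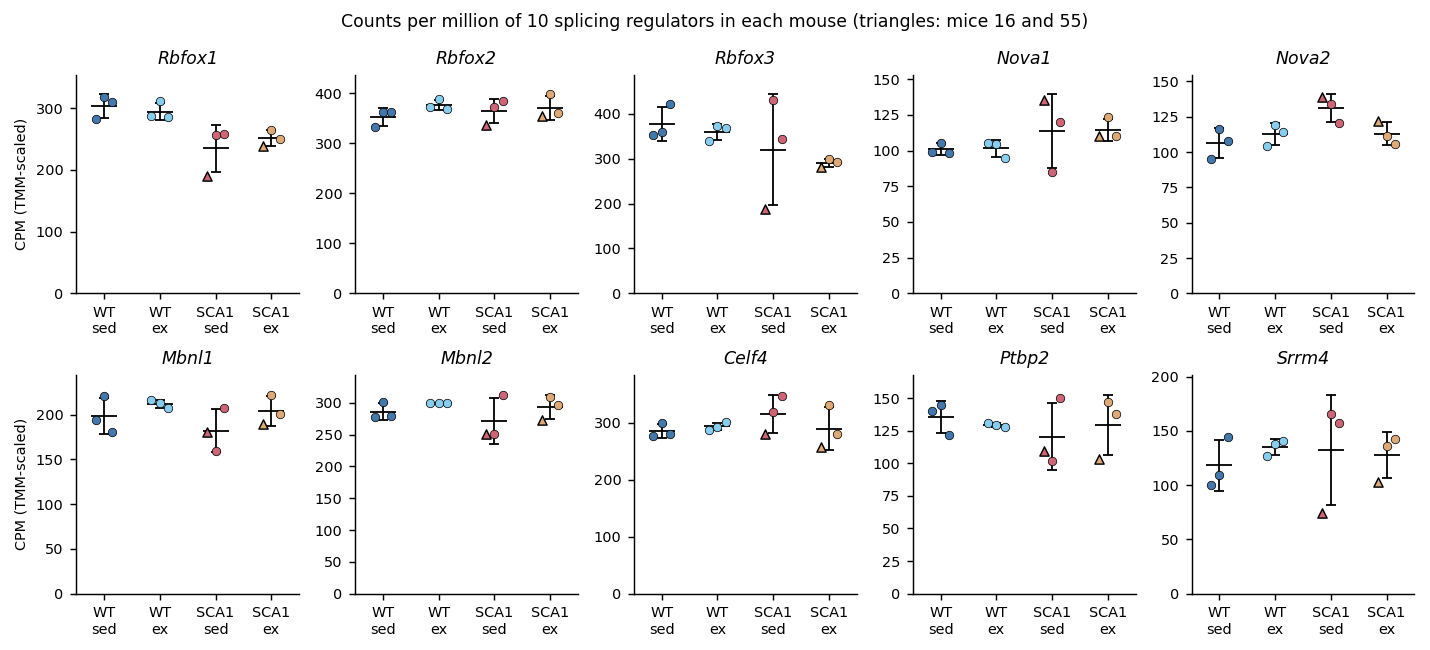
CPM (vertical axis, counts scaled by TMM library size) of the 10 splicing regulators in each of 12 mice, by group (sed, sedentary, and ex, exercise), with the mean and SD over 3 mice as a bar and whiskers. Triangles are mice 16 and 55. The 6 SCA1 mice were between 191 and 265 CPM for Rbfox1, all below the 6 WT mice at 282 to 318 CPM.

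Per kilobase of merged exons, and averaged over all 12 libraries, Rbfox2 had the highest level at 43.1 CPM per kb. Celf4 followed at 31.3, Rbfox1 at 27.8, Rbfox3 at 23.6, Mbnl2 at 18.1, Srrm4 at 14.7, Nova2 at 13.8, Ptbp2 at 10.4, Mbnl1 at 9.82 and Nova1 at 8.61 CPM per kb. Even the lowest Rbfox2 library was above the highest Celf4 library (39.1 to 46.8 against 27.2 to 36.7 CPM per kb), whereas each later neighbour in that order overlapped the next. In WT sedentary mice alone, Rbfox1 (31.1 ± 1.95 CPM per kb, SD, n = 3) and Celf4 (30.2 ± 1.23) differed by less than their spread. Among tested genes, the level per kb of Rbfox2 stood at the 97.9th percentile and that of Nova1 at the 77.8th. A per-kb level assumes that all merged exons are used, which differs between genes with many isoforms.

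**Figure D2:**
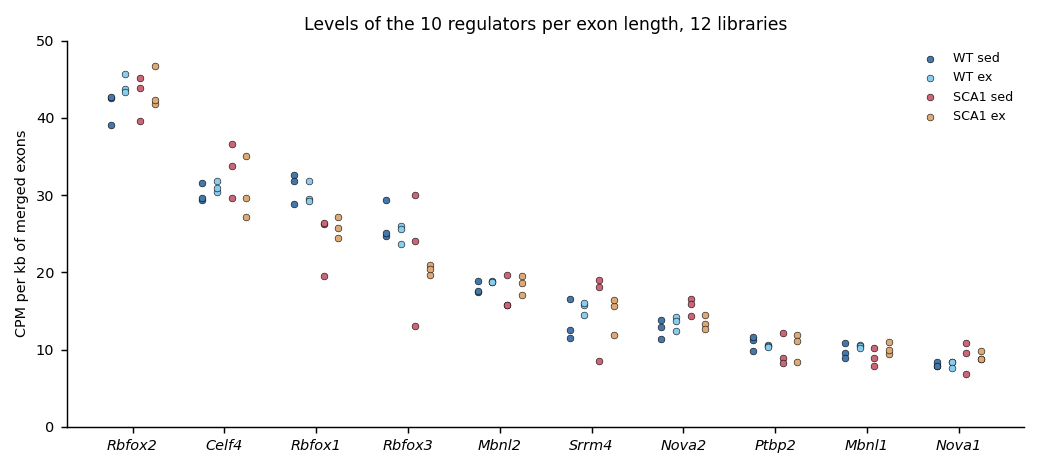
Levels of the 10 regulators in CPM per kilobase of merged exons (vertical axis) for each of 12 libraries, coloured by group and ordered by the mean over all libraries. Rbfox2, at 39.1 to 46.8 CPM per kb, lies above all other regulators in every library.

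The spread within groups also differed between regulators. Rbfox2 varied least, with a coefficient of variation within groups of 5.42%, and Srrm4 varied most, with 23.3%, followed by Rbfox3. The median of tested genes with an average log2 CPM of at least 5 was 11.1%. Much of the Srrm4 and Rbfox3 spread came from the SCA1 sedentary group, where the SD over 3 mice was 50.7 CPM for Srrm4 and 123 CPM for Rbfox3.

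The first comparison asks whether SCA1 changed the RNA level of these regulators without exercise. No regulator reached an adjusted p under 0.05 between SCA1 sedentary and WT sedentary mice in edgeR (0 of 10, against 7 of all 20341 genes, 0.0344%), and DESeq2 on the same libraries called 0 of 10, against 1.18% of the genes it tested. At an unadjusted p under 0.05 there were 2 of 10, Rbfox1 with lower and Nova2 with higher counts, against 10.1% of all genes. The same pair were the regulators whose SCA1 sedentary and WT sedentary mice did not overlap, against 11.4% of all genes. Higher counts were seen for 5 regulators and lower counts for 5, with a median log2 fold change (log2FC) of -0.01 against 0.02 over all genes tested. All 10 confidence intervals (95%) stayed within a log2FC of 1 in either direction, and 5 of 10 within 0.5.

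Rbfox1 (chr16:5124665-7230343, plus strand), whose protein binds GCAUG beside neuronal exons, had the most even difference by genotype. It was counted at 282, 310 and 318 CPM in WT sedentary mice and at 285, 287 and 311 CPM in WT exercise mice. The SCA1 sedentary mice had 191, 256 and 258 CPM, and the SCA1 exercise mice 238, 250.4 and 265 CPM. Every SCA1 mouse was below every WT mouse, whichever the activity. In sedentary mice the log2FC was -0.37 ± 0.12 (SE), a fold of 0.774 with a 95% interval of 0.648 to 0.926, with an unadjusted p of 0.00878 and an adjusted p of 0.322 in edgeR.

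Averaged over sedentary and exercise mice, the Rbfox1 log2FC of SCA1 against WT was -0.30 ± 0.08 (SE) (unadjusted p = 0.00374, adjusted p = 0.242, edgeR). The exact permutation test of genotype within each activity gave a two-sided p of 0.005, the smallest that its 400 arrangements allow, before any adjustment over genes. Within one activity, 3 mice against 3, such a test cannot go below 0.1, which is what it gave for Rbfox1. Groups of 6 against 6 that do not overlap were found for 1 of the 10 regulators and for 1.17% of all genes. At an unadjusted p under 0.05 there was also 1 of 10, against 9.81% of all genes, and 0 of 10 passed the adjusted threshold, against 0.143%. DESeq2 called 0 of 10 regulators there, against 1.28% of its genes, and gave Rbfox1 its lowest adjusted p over the alternatives, 0.0932.

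The averaged Rbfox1 log2FC without mice 16 and 55 was -0.20 ± 0.06 (SE) (unadjusted p = 0.00571, adjusted p = 0.168, edgeR), with 1.33% of all genes called and 11.7% at an unadjusted p under 0.05. In sedentary mice it was then -0.22 (unadjusted p = 0.0241, adjusted p = 0.179). Markers of Purkinje cells, in which Rbfox1 is known to be expressed, moved with genotype as well. Their sum was 8083 to 9151 CPM in WT sedentary, 8539 to 9069 CPM in WT exercise, 4876 to 6522 CPM in SCA1 sedentary and 6501 to 8062 CPM in SCA1 exercise mice, and 8 of 8 had lower counts in SCA1 sedentary mice. Granule cell markers were also lower in SCA1 sedentary mice, 8 of 8. Mouse 16 had the lowest Purkinje sum of the SCA1 sedentary mice, 4876 CPM, and their lowest Rbfox1 value, 191 CPM. Mouse 55 had the highest Purkinje sum of the SCA1 exercise mice, 8062 CPM, and their lowest Rbfox1 value, 238 CPM. The granule cell sums of both mice, 3142 CPM (mouse 16) and 4073 CPM (mouse 55), were the lowest of their groups. The part of either marker list in the Rbfox1 difference was not tested.

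Rbfox2 (chr15:76963189-77191303, minus strand), which shares the GCAUG motif with Rbfox1, lay at 332, 362 and 363 CPM in WT sedentary and at 337, 372 and 384 CPM in SCA1 sedentary mice. With exercise it was at 369, 372 and 388 CPM in WT and at 355, 360 and 398 CPM in SCA1 mice. These groups of the 2 genotypes overlapped, with an averaged log2FC of 0.01 and a 95% interval of -0.13 to 0.16.

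Rbfox3 (chr11:118380442-118802423, minus strand), the NeuN gene, was at 353, 359 and 421 CPM in WT sedentary and at 339, 368 and 373 CPM in WT exercise mice. In SCA1 sedentary mice it spanned 187, 344 and 429.5 CPM, and in SCA1 exercise mice it was at 281, 292 and 299.9 CPM. The value of 187 CPM was mouse 16, the library with the lowest granule cell sum. The averaged log2FC was -0.27 ± 0.15 (SE) (unadjusted p = 0.102, adjusted p = 0.574, edgeR). Granule cell marker sums were also lower in SCA1 exercise mice, at 4073 to 5943 CPM against 5997 to 6267 CPM in WT exercise mice. In SCA1 sedentary mice they were 3142 to 5775 CPM, and the highest Rbfox3 value there, 429.5 CPM, was above every WT mouse. The part of these sums in the Rbfox3 difference was not tested. The averaged Rbfox3 log2FC was -0.11 without mice 16 and 55, and in sedentary mice the sign turned, from -0.24 with them to 0.05 without. All 3 SCA1 exercise mice were below all 3 WT exercise mice, as was so for Rbfox1, while Nova1 was above, so that 3 of 10 regulators did not overlap there, against 14.2% of all genes. By edgeR that comparison called 0% of genes and had 2.93% at an unadjusted p under 0.05, and none of the 10 regulators was among either or among the 0.0215% that DESeq2 called. At that unadjusted level, 1 of 10 regulators was lower and 0 higher without mice 16 and 55, against 1411 of 20494 genes.

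The ratio of paralogs within a library does not depend on how libraries are scaled. Ratios were taken for 5 pairs, chosen after the values had been seen, and are given with no test. The Rbfox1 count was 0.848, 0.853 and 0.878 times the Rbfox2 count in WT sedentary mice and 0.772, 0.772 and 0.800 times in WT exercise mice. In SCA1 mice it was 0.566, 0.671 and 0.686 times (sedentary) and 0.665, 0.672 and 0.695 times (exercise). All 6 SCA1 ratios were therefore below all 6 WT ratios, a log2 difference of -0.32 averaged over activity. Without mice 16 and 55 it was -0.27. The Rbfox1 counts alone already separated the genotypes, so this ratio is not independent of that result. In WT mice the ratio was also lower in all 3 exercise than in all 3 sedentary mice, whereas the SCA1 groups overlapped. Rbfox2 counts alone separated those WT groups too, as did 21.2% of all genes.

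The other ratios were less separated. Rbfox3 to Rbfox2 was 0.911 to 1.16 in WT and 0.556 to 1.15 in SCA1 mice (log2 difference -0.32, and -0.18 without mice 16 and 55). Nova2 to Nova1 differed by -0.01, Mbnl2 to Mbnl1 by 0.03 and Ptbp2 to Ptbp1 by -0.07.

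**Figure D3:**
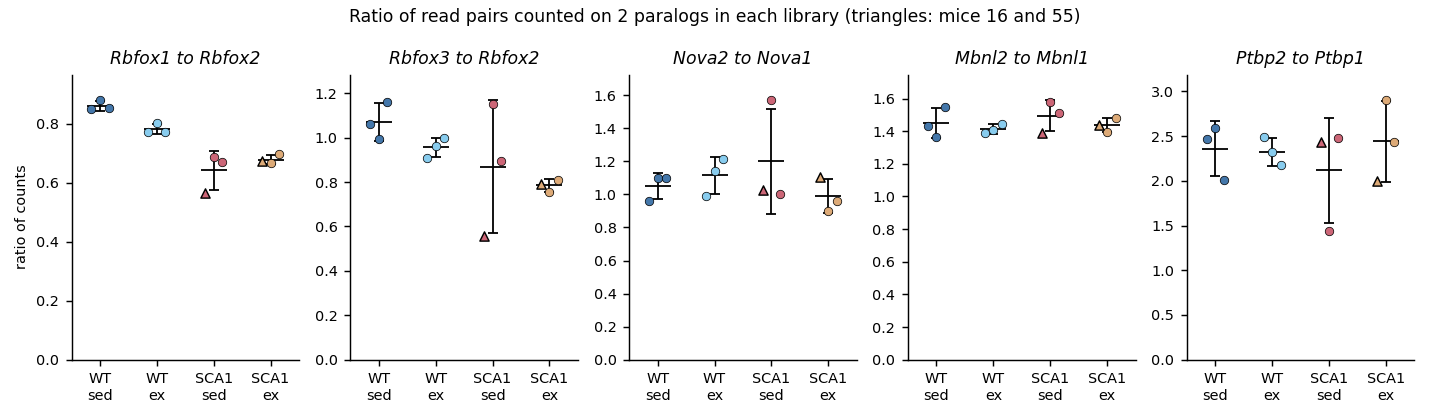
Ratio of counts of 2 paralogs within each library (vertical axis) for 5 pairs, by group (sed, sedentary, and ex, exercise), with the mean and SD over 3 mice. Triangles are mice 16 and 55. The Rbfox1 to Rbfox2 ratio was 0.772 to 0.878 in WT and 0.566 to 0.695 in SCA1 mice, without overlap.

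Nova2 (chr7:18659789-18699244, plus strand) encodes a KH-domain protein that binds YCAY clusters in neuronal transcripts. Its counts were 95.1, 108 and 116 CPM in WT sedentary and 120.3, 134 and 139 CPM in SCA1 sedentary mice, which did not overlap. Exercise mice had 104, 114 and 119 CPM (WT) and 106, 111 and 122 CPM (SCA1), which did. The log2FC of SCA1 sedentary against WT sedentary was 0.30 ± 0.10 (SE), a fold of 1.23 with a 95% interval of 1.06 to 1.44 (unadjusted p = 0.0116, adjusted p = 0.354, edgeR). Without mice 16 and 55 it was 0.27 (unadjusted p = 0.0148, adjusted p = 0.146), where 1.24% of all genes were called and 20.2% had an unadjusted p under 0.05. Between exercise mice of the 2 genotypes the log2FC was 0.00, and the difference between these effects, the interaction of genotype and exercise, was -0.30 ± 0.14 (SE) (unadjusted p = 0.0601, adjusted p = 1.00). The interaction called 0% of genes and had 3.78% at an unadjusted p under 0.05, with 0 of 10 regulators in either or among the 0.0057% called by DESeq2. At that unadjusted level, 2 of 10 regulators were lower and 0 higher without mice 16 and 55, against 3028 of 20494 genes.

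Nova1 (chr12:46741300-46866286, minus strand), the paralog with the same motif, was at 98.3, 98.9 and 106 CPM in WT sedentary and at 94.4, 105 and 105 CPM in WT exercise mice. SCA1 sedentary mice ranged over 85.2, 119.8 and 136 CPM, on both sides of the WT mice, and SCA1 exercise mice had 110.1, 110.1 and 123 CPM. The averaged log2FC was 0.17 ± 0.10 (SE) with a 95% interval of -0.04 to 0.39 (adjusted p = 0.577, edgeR). The value of 136 CPM was mouse 16, and without mice 16 and 55 the Nova1 log2FC was 0.13 averaged and 0.04 in sedentary mice, against 0.17 in sedentary mice with them.

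Srrm4 (chr5:116577334-116729924, minus strand), the microexon activator also called nSR100, depended on single libraries, as Rbfox3 did. WT sedentary mice had 100.4, 109 and 145 CPM and WT exercise mice 126, 138 and 140.4 CPM. In SCA1 sedentary mice it was at 74.2, 158 and 166 CPM, and in SCA1 exercise mice at 103, 136 and 143 CPM. The lowest value of each SCA1 group was mouse 16 or mouse 55. The log2FC in sedentary mice was 0.16 ± 0.25 (SE) with all libraries (adjusted p = 0.861, edgeR) and 0.47 ± 0.12 (SE) without mice 16 and 55, with a 95% interval of 0.22 to 0.73 (unadjusted p = 0.00148, adjusted p = 0.0671). That adjusted p was the lowest of any regulator in any comparison and setting. Averaged over activity, the log2FC was 0.04 with and 0.27 without them (unadjusted p = 0.00746, adjusted p = 0.192). Without mice 16 and 55, mice 194 and 195 alone made up the SCA1 sedentary group. Of the 10 regulators, 3 were then higher and 1 lower at an unadjusted p under 0.05 in sedentary mice (edgeR), against 20.2% of all genes.

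Celf4 (chr18:25610508-25887427, minus strand), a neuronal RNA-binding protein that also acts on stability and translation of its targets, was at 278, 280.1 and 299 CPM in WT sedentary and at 279.5, 319.6 and 347 CPM in SCA1 sedentary mice. The exercise groups had 288, 292 and 301 CPM (WT) and 257, 279.9 and 331 CPM (SCA1). Both lowest SCA1 values were again mice 16 and 55. The sedentary log2FC was 0.14 ± 0.11 (SE) with them (adjusted p = 0.700, edgeR) and 0.24 ± 0.09 (SE) without (unadjusted p = 0.0219, adjusted p = 0.172), and the averaged values were 0.06 and 0.15.

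Ptbp2 (chr3:119509386-119578115, minus strand), the neuronal polypyrimidine tract-binding protein, had 122, 139.9 and 144 CPM in WT sedentary and 102, 109.7 and 149.8 CPM in SCA1 sedentary mice. It had 128, 129 and 131 CPM in WT exercise and 104, 138 and 147 CPM in SCA1 exercise mice. The SCA1 mice lay on both sides of the WT mice in each activity, with an averaged log2FC of -0.08 and a 95% interval of -0.32 to 0.15.

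Mbnl1 (chr3:60380102-60537183, plus strand) and Mbnl2 (chr14:120512932-120669110, plus strand) encode muscleblind proteins, which bind YGCY elements and favour adult exon patterns. Mbnl1 was counted at 181, 194 and 220.3 CPM in WT sedentary, 207, 213 and 216 CPM in WT exercise, 159, 180.4 and 207 CPM in SCA1 sedentary and 189.9, 201 and 222 CPM in SCA1 exercise mice. Mbnl2 was at 278, 279.5 and 301 CPM, at 299, 299 and 300.2 CPM, at 251, 251 and 313 CPM, and at 273, 297 and 309.9 CPM in the same groups. Neither separated the genotypes, with averaged log2FCs of -0.09 (95% interval -0.26 to 0.09) and -0.05 (-0.21 to 0.11). Mbnl2 shares exon bases with Gm26679 and Gm62329 on the opposite strand, and counting without strand gave 0.923 to 0.949 times its stranded count.

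**Figure D4:**
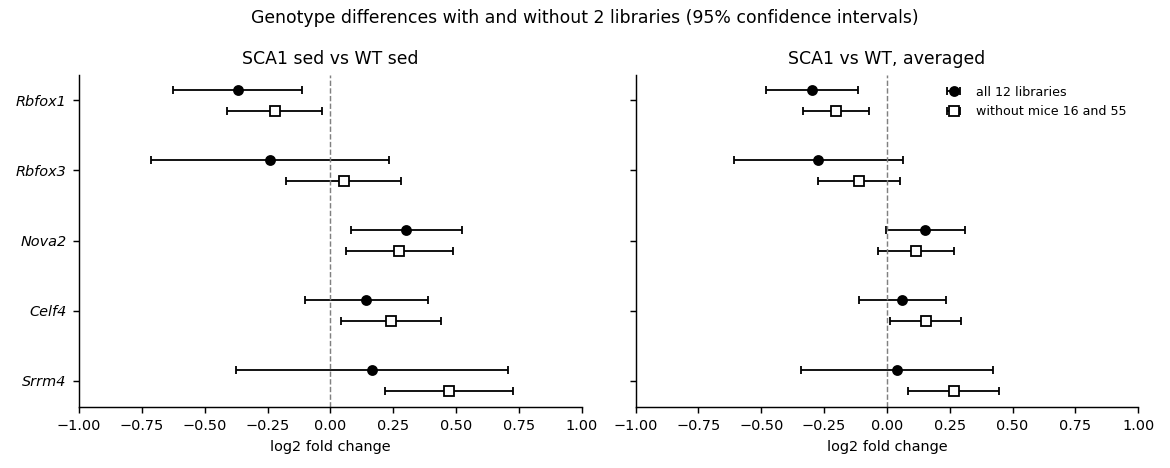
The log2 fold changes (horizontal axes, edgeR, with 95% confidence intervals) of 5 regulators for SCA1 sedentary against WT sedentary and for SCA1 against WT averaged over activity, with all 12 libraries (filled circles) and without mice 16 and 55 (open squares). Rbfox1 stayed below 0 in both, Rbfox3 crossed 0 in sedentary mice, and Srrm4 was at 0.16 with and 0.47 without these libraries.

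The next comparisons ask whether wheel running changed these levels. Between WT exercise and WT sedentary mice, 0 of 10 regulators were called by edgeR and by DESeq2 and 0 of 10 had an unadjusted p under 0.05 in edgeR, against 0% and 4.69% of all genes (0.288% by DESeq2). Log2FCs ran from -0.07 (Rbfox3) to 0.19 (Srrm4), 7 above 0 and 3 below, with adjusted p-values of at least 0.958. Only Rbfox2 separated the mice, at 369 to 388 CPM with exercise and 332 to 363 CPM without (log2FC 0.09 ± 0.09, SE), and 21.2% of all genes did so. In 8 of 10 regulators the 95% interval lay within a log2FC of 0.5 in either direction.

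Within the SCA1 genotype, exercise against sedentary mice again gave 0 of 10 called by either tool and 0 of 10 at an unadjusted p under 0.05 in edgeR, against 0% and 2.17% of all genes (0.00285% by DESeq2), and 0 of 10 without overlap, against 4.5%. Nova2 had the largest shift, a log2FC of -0.21 ± 0.10 (SE) (unadjusted p = 0.0575, adjusted p = 0.999, edgeR), from 131 ± 9.67 to 113 ± 8.02 CPM (SD). Rbfox3 without mice 16 and 55 was at -0.39 ± 0.12 (SE) (unadjusted p = 0.00536, adjusted p = 0.565), where 0% of all genes were called and 8.79% had an unadjusted p under 0.05. That value contrasts 2 mice with 2 mice, and with all 6 it was -0.14.

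Averaged over genotypes, exercise against sedentary gave log2FCs between -0.10 (Rbfox3) and 0.13 (Mbnl1), with 0 of 10 regulators called or at an unadjusted p under 0.05, against 0% and 3.54% of all genes, and 0 of 10 called by DESeq2, against 0.0181%. All 10 of these 95% intervals lay within 0.5 in either direction, and 7 of 10 within 0.3. Leaving out mice 16 and 55 gave 1 of 10 lower and 0 higher at an unadjusted p under 0.05, against 1328 of 20494 genes. Between SCA1 exercise and WT sedentary mice, which share neither genotype nor activity, 0 of 10 were called by edgeR or DESeq2, and Rbfox1 was the 1 regulator at an unadjusted p under 0.05 (log2FC -0.27, unadjusted p = 0.0405, adjusted p = 1.00), against 0% and 4.21% of all genes (0.16% by DESeq2). At that unadjusted level, 2 of 10 were lower and 0 higher in this comparison without mice 16 and 55, against 1737 of 20494 genes.

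**Figure D5:**
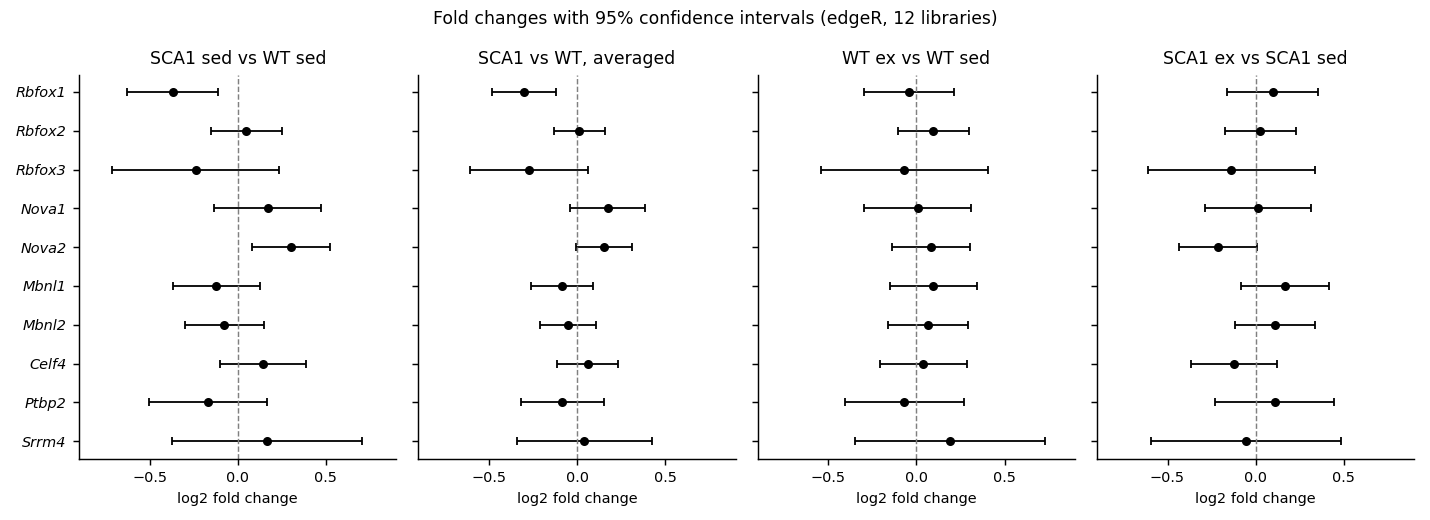
Log2 fold changes (horizontal axes) of the 10 regulators with 95% confidence intervals from edgeR, in 4 comparisons of mice (sed, sedentary, and ex, exercise). For SCA1 sedentary against WT sedentary and SCA1 against WT averaged over activity the Rbfox1 interval lies below 0, and in both exercise comparisons drawn every interval includes 0.

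Relatives of these regulators were described from a list of 29 paralogs and other tissue-restricted splicing regulators. Of these, 25 were tested, and Mbnl3, Esrp1, Esrp2 and Raver1 were not. Raver1 had no count in any library. None of the 25 was called by edgeR in any comparison with all 12 libraries. In sedentary mice 16 were higher and 9 lower in SCA1, with a median log2FC of 0.12 against 0.02 for all genes, and 4 were higher and 0 lower at an unadjusted p under 0.05, against 10.1% of all genes. Those 4 were Rbm47 (log2FC 2.22), Celf6 (1.22), Rbm38 (0.46) and Msi1 (0.33). Averaged over activity, 7 were higher and 0 lower at an unadjusted p under 0.05, against 9.81% of all genes, with a median of 0.03 against 0.01, and Rbm47 (0.88), Celf6 (0.87) and Elavl2 (0.63) had the largest of these differences. The Rbm47 mean was higher in SCA1 than in WT sedentary mice (3.48 against 0.735 CPM). In exercise mice it was lower in SCA1 than in WT (5.15 against 7.11 CPM). Celf6, a relative of Celf4, was at 4.61, 4.61 and 5.66 CPM in WT sedentary and at 5.49, 8.41 and 20.7 CPM in SCA1 sedentary mice, the highest being mouse 16. Elavl2 was at 23.7, 24.1 and 76.9 CPM in SCA1 sedentary mice, against 23.4 to 28.1 CPM in WT sedentary mice, with mouse 16 again highest. The averaged log2FCs without mice 16 and 55 were 0.26 for Celf6, 0.05 for Elavl2 and 0.46 for Rbm47, none of them at an unadjusted p under 0.05. In sedentary mice Elavl2 was then at -0.12, Celf6 at 0.51, Rbm47 at 1.86, Rbm38 at 0.48 and Msi1 at 0.26. The list then had 26 genes tested, with 6 higher and 0 lower at that level in sedentary mice and 3 higher and 0 lower averaged, against 20.2% and 11.7% of all genes. DESeq2 called Rbm47 in sedentary mice (adjusted p = 0.00803) and none averaged over activity. Without mice 16 and 55, edgeR called Celf3, another CELF gene, in sedentary mice (log2FC 0.63, adjusted p = 0.0317), named here after its value was seen.

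Rbm47, which is known from epithelial cells, also had the largest difference with exercise. Its mean was 0.735 CPM in WT sedentary, 7.11 CPM in WT exercise, 3.48 CPM in SCA1 sedentary and 5.15 CPM in SCA1 exercise mice, and the averaged exercise log2FC was 1.90 ± 0.40 (SE) (unadjusted p = 0.000433, adjusted p = 0.945, edgeR). Choroid plexus markers moved with it. They summed to 15.7 to 39.8 CPM in WT sedentary, 100.2 to 187 CPM in WT exercise, 21.9 to 111 CPM in SCA1 sedentary and 66.1 to 165 CPM in SCA1 exercise mice. DESeq2 called Rbm47 in that comparison (adjusted p = 0.00592) and between WT exercise and WT sedentary mice (log2FC 3.26, adjusted p = 5.67e-06), which edgeR also did without mice 16 and 55 (log2FC 3.23, adjusted p = 0.0168, with 0.317% of all genes called and 13.3% at an unadjusted p under 0.05). The mean levels behind these folds were below 10 CPM. Rbm38 had an averaged exercise log2FC of -0.34 (unadjusted p = 0.0382, adjusted p = 0.945).

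Partners of RBFOX proteins in the large assembly of splicing regulators (LASR) were also measured, and all 8 passed the filter. None was called in any comparison by edgeR or DESeq2. In SCA1 sedentary against WT sedentary mice 3 were higher and 5 lower, with a median log2FC of -0.17 against 0.02 for all genes, and Hnrnpc (-0.22) and Ilf2 (-0.23) had an unadjusted p under 0.05 (2 of 8, against 10.1% of all genes). These were -0.19 and -0.14 without mice 16 and 55. The median was then -0.07, with 2 of 8 higher and 2 lower at an unadjusted p under 0.05, against 20.2% of all genes. Averaged over activity 1 was higher and 7 lower, with none at an unadjusted p under 0.05. The averaged median was -0.11 with all libraries and -0.03 without mice 16 and 55.

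Of 18 genes with exons that these regulators are known to control, all were tested and none was called by edgeR or DESeq2. Glra2, a glycine receptor subunit, was higher in SCA1 at an unadjusted p under 0.05 both in sedentary mice (log2FC 1.14) and averaged over activity (1.00, unadjusted p = 0.00949, adjusted p = 0.354, edgeR). Agrn, which encodes agrin, reached that level in sedentary mice alone (0.41) and Tanc2 in the averaged comparison alone (0.43), and these contrasts were not set against each other in a test. These were 2 of 18 genes in each comparison, against 10.1% and 9.81% of all genes. Mean Glra2 levels were low, at 2.83 CPM in WT sedentary, 2.15 CPM in WT exercise, 6.21 CPM in SCA1 sedentary and 3.89 CPM in SCA1 exercise mice. The highest Glra2 and Tanc2 values of each SCA1 group were mice 16 and 55. Tanc2 was at 96.0, 97.5 and 191 CPM in SCA1 sedentary mice, against 84.2 to 104 CPM in WT sedentary mice. The log2FC of Glra2 without mice 16 and 55 was 0.48 in sedentary mice and 0.54 averaged, that of Tanc2 was 0.12 averaged, and that of Agrn was 0.40 in sedentary mice. Further channel genes were taken from the study, which chose them on these mice, so their direction is not independent evidence. Kcnma1, the large-conductance potassium channel gene, had a log2FC of -0.31 in the averaged genotype comparison (unadjusted p = 0.00254, adjusted p = 0.211 in edgeR and 0.0412 in DESeq2) and Cacna2d2 did not reach an unadjusted p under 0.05.

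Across the 12 libraries some regulators varied together. Mbnl1 and Mbnl2 had a Pearson r of 0.90 on log2 CPM, and Mbnl2 and Ptbp2 of 0.85, whereas Rbfox3 and Nova1 had -0.83. Without mice 16 and 55 these were 0.93, 0.85 and -0.78. Rbfox1 and Rbfox3 had 0.83 with and 0.41 without them. These libraries share genotype, activity and tissue makeup, so the values describe the samples.

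The gene whose levels followed each regulator most closely over the 12 libraries, among genes of average log2 CPM of at least 3 (11142 genes), was Gm42771 for Rbfox1 (r = 0.97), Fmn2 for Rbfox2 (0.94), Pip5k1c for Rbfox3 (0.98), Nexmif for Nova1 (0.94), Ttbk1 for Nova2 (0.93), Mob1b for Mbnl1 (0.99), Gm44435 for Mbnl2 (0.98), Rufy1 for Celf4 (0.91), Lrif1 for Ptbp2 (0.97) and Fry for Srrm4 (0.99). Without mice 16 and 55 the lowest of these was 0.87 (Celf4) and the highest 0.99 (Mbnl1).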

How the data were processed

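Gene counts were deposited per mouse: the authors trimmed reads with fastp 0.24.0, checked them with FastQC 0.11.9 and aligned them to GRCm39 with STAR 2.7.10a, whose gene counts were used as deposited (tool versions per the labels; the annotation release is not given in the sources used here). The deposited counts for the reverse strand were used, since only 5.54% to 6.01% of stranded counts lay on the forward strand. Summary lines that name no gene were left out; 39.3% to 58.7% of read pairs met no gene on this strand. No column was left unmapped. Counts are read pairs without molecular identifiers, so intervals from counts would cover counting error only. CPM used TMM library sizes.

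Genes were tested with edgeR 4.0.16 in R 4.3.3 (filterByExpr, TMM, quasi-likelihood F-test, all 4 groups in 1 fit, two-sided, Benjamini-Hochberg over 20341 genes, called at adjusted p under 0.05). Standard errors are the size of log2FC divided by the root of F. The averaged genotype and exercise comparisons take the mean of both within-group contrasts. Exact permutation tests used log2 CPM with a prior count of 2. Mice are taken as separate animals, and p-values measure the spread between them. The edgeR script was tested on simulated data with 200 changed genes. Exon sequences, lengths and positions came from GENCODE M39 on GRCm39, which matched 56323 gene identifiers and missed 618.

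The members and the lists were chosen with earlier results of these data known. Named genes of each list were those called, and otherwise up to 3 highest and 3 lowest log2FCs at an unadjusted p under 0.05 in SCA1 sedentary against WT sedentary and the 2 averaged comparisons; per regulator, the gene with the highest r was named. Alternatives were DESeq2 1.42.0, the compared groups alone, other scaling, other filters, counts without strand, a chromosome Y covariate, and leaving out mice 16 and 55 or each mouse. The paralog ratios, their alternatives, and the values and calls on the lists by DESeq2 or without mice 16 and 55 were added after seeing the data. One result of the lists is not reported here.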

Additional observations from a re-analysis of the deposited data

Results flagged for a closer look

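Each regulator's log2 CPM was examined in the 6 mice of each genotype and the 6 mice of each activity, 40 groups in all, for a highest or lowest mouse whose gap to its nearest neighbour took an unusually large share of the group's range (Dixon's ratio, above 0.625 for 6 values). Chance alone marks about 1 in 20 such groups, and 4 of 40 were marked, each by a low value of mouse 16 or mouse 55. Rbfox1 in SCA1 mice was marked by mouse 16, with a ratio of 0.681 (191 CPM, against 238 to 265 CPM in the other 5). Mouse 16 also marked Rbfox3 in sedentary mice, with a ratio of 0.731 (187 CPM, against 344 to 429.5 CPM). Mouse 55 marked Mbnl2 in exercise mice, with a ratio of 0.674 (273 CPM, against 297 to 309.9 CPM), and Srrm4 in exercise mice, with a ratio of 0.626 (103 CPM, against 126 to 143 CPM). Each of these libraries had the highest hindbrain Hox and the lowest granule cell marker sum of its group. The part of this in the marked values was not tested.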

How the results depend on the processing

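No regulator was called under any alternative in any of the 8 comparisons. Of 1650 recomputed log2FCs, 1620 stayed within 1 SE of the reported value and 30 moved further, and 102 had another sign, all for differences that were not called. Of 80 recomputed group levels, 77 stayed within 1 SD and 3, all of Mbnl2, moved. The counts over all genes, against which the regulators are read, depended strongly on the setting. In SCA1 sedentary against WT sedentary mice 7 genes were called, but 228 with DESeq2, 0 with these groups alone, 76 with every gene of at least 1 count, 1 with a chromosome Y covariate, 255 without mice 16 and 55, and 0 to 42 with any 1 mouse left out. Averaged over activity there were 29, but 264 with DESeq2, 145 with genes of at least 1 count, 15 without strand, 16 with the chromosome Y covariate, 272 without mice 16 and 55, and 0 to 74 with 1 mouse left out. From 0, the count for exercise in WT mice became 65 with DESeq2, 169 with these groups alone, 45 with genes of at least 1 count, 65 without mice 16 and 55 and 0 to 19 with 1 mouse left out. From 0 too, SCA1 exercise against SCA1 sedentary gave 1 with DESeq2. SCA1 exercise against WT exercise gave 4 with DESeq2, 37 without mice 16 and 55 and 0 to 5 with 1 mouse left out. SCA1 exercise against WT sedentary gave 33 with DESeq2, 17 with genes of at least 1 count, 46 without mice 16 and 55 and 0 to 3 with 1 mouse left out. The interaction gave 2 with DESeq2 and 0 to 1 with 1 mouse left out, and averaged exercise 6 with DESeq2. Leaving out mouse 16 or mouse 194 moved Rbfox3 in sedentary mice from -0.24 to 0.03 or -0.52, and leaving out mouse 16 moved Srrm4 from 0.16 to 0.45. With the chromosome Y covariate the averaged Rbfox1 log2FC was -0.31. The cause of these shifts was not tested. With 3 mice a group, the 95% interval lay within a log2FC of 0.3 in either direction for 4 of 10 regulators by genotype and 7 of 10 by exercise, both averaged. No paired analysis was possible because mouse numbers are not shared between groups.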
